A study of Rattus norvegicus with 18 samples.

Results

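The genes described are 36 enzymes, regulators and transport genes of cholesterol and fatty acid synthesis, measured in heart muscle cells given a hypertrophic stimulus with or without a REV-ERB agonist. The list was set by gene name, and a member was kept when its mean over the 6 groups was at least 1 FPKM (fragments per kilobase of transcript, scaled to the mapped fragments of the library). All 36 are in the table of 17312 genes and 35 were kept. Elovl6, a fatty acid elongase, was left out at a mean of 0.225 FPKM, while the lowest kept member, Ch25h, had 4.86 FPKM.

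The cells were neonatal rat ventricular myocytes (NRVM), a primary culture from the hearts of day 2 Sprague-Dawley pups, held without serum from 24 h before the pretreatment. They received SR9009 or vehicle for 24 h. SR9009 is a synthetic agonist of REV-ERBα and REV-ERBβ, nuclear receptors that repress transcription. Phenylephrine (PE), an α1-adrenergic agonist that makes cultured cardiomyocytes enlarge, then followed for 0, 4 or 48 h, giving 3 groups with SR9009 and 3 with vehicle; no dose is stated. No group at 4 or 48 h lacked PE, so PE and time in culture cannot be told apart within an arm.

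Behind each group stand 3 libraries, but the deposited table gives a single FPKM per gene and group, between confidence bounds of the authors. No standard deviation and no test could be computed from these, depth is unknown, and the spread between libraries enters only through the authors' bounds. The bounds lay a median of 14.7% to 15.0% of the value to either side for the kept members, over the 6 groups. Differences are of log2(FPKM + 1), with the widest range that the bounds allow in parentheses. The size rule asks for a difference of at least 1 (2-fold) in either direction and a range without 0, and only genes that meet it are called higher or lower. The rule is a description and not a test, and the share of all genes that met it is given as background.

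Cholesterol and fatty acids are both built from acetyl-CoA. The pathway's enzymes are switched on together by the transcription factors SREBP-1 and SREBP-2 (genes Srebf1 and Srebf2). When membrane cholesterol is plentiful, the INSIG proteins hold SREBP and its escort SCAP in the endoplasmic reticulum; when it is scarce, SREBP is released, cut and sent to the nucleus. Oxysterols such as the product of Ch25h also hold SREBP back, and they activate the LXR receptors, which raise the cholesterol exporter Abca1. In mouse liver, REV-ERBα is known to act on this system through Insig2.

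After 48 h of PE, 2 of the 35 members, Fads1 and Fdps, were higher than at 0 h with SR9009, against 21 of 35 in vehicle, and 0 were lower in either arm. The background over all genes was 1.26% higher and 1.16% lower with SR9009, and 4.87% higher and 3.96% lower in vehicle. The members' FPKM summed to 1279, 2156 and 1975 at 0, 4 and 48 h of PE with SR9009, against 1155, 1584 and 3979 in vehicle. With SR9009 the sum was thus highest at 4 h, and in vehicle at 48 h. Single members followed the same order: with SR9009, 23 of 35 had their highest FPKM at 4 h and 11 at 48 h, and in vehicle 1 of 35 had it at 4 h and 33 at 48 h. With SR9009 the 4 h and 48 h values often lay close, so the order of these times is uncertain for many members. Their median difference between 48 h and 4 h was -0.15, and ranges such as that of Hmgcs1, -0.38 (-0.78 to 0.02), held 0. Only Ch25h was lower at 48 h than at 4 h with SR9009, 1 of 35 beside 2% of all genes. The median member difference between 48 h and 0 h was 0.48 with SR9009 and 1.18 in vehicle, beside -0.03 and 0.01 for all genes tested.

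**Figure D1:**
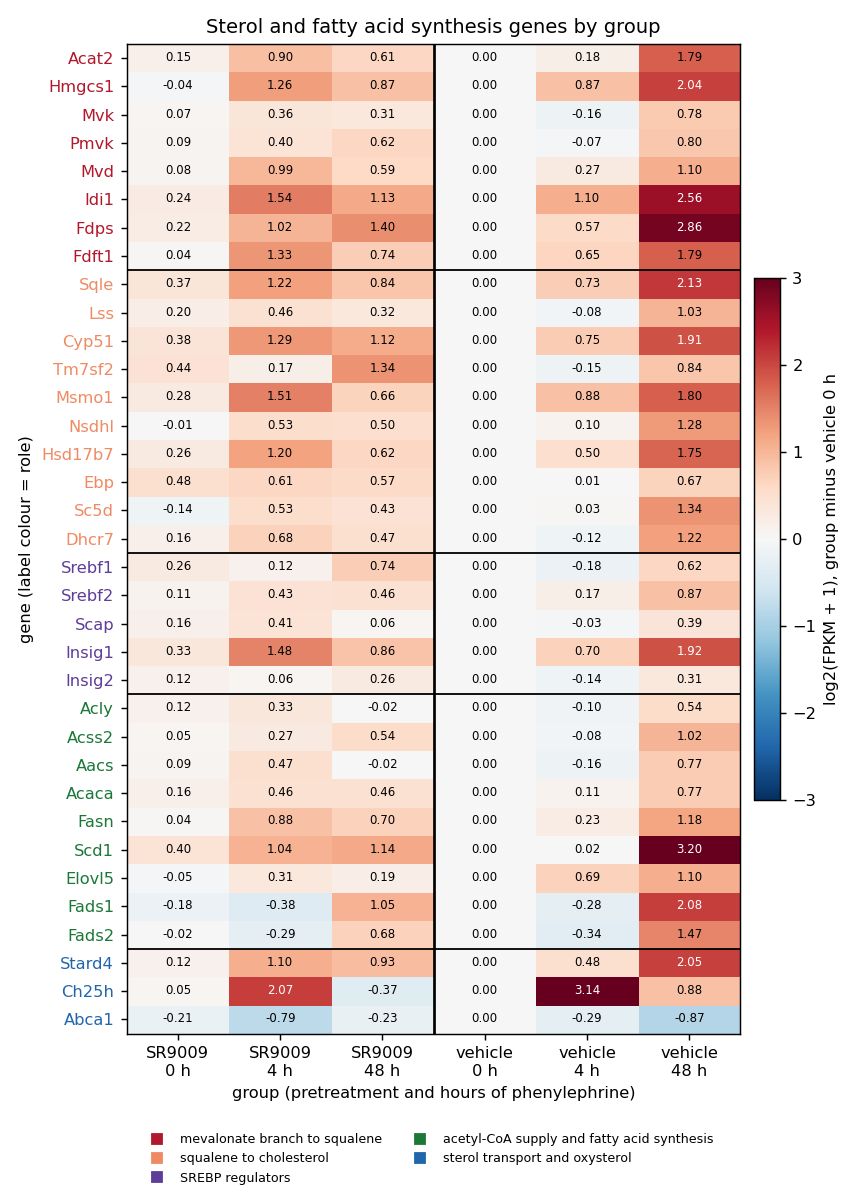
Heat map of log2(FPKM + 1) of each member (rows, ordered by role) in the 6 groups (columns: pretreatment and hours of PE), minus its value in vehicle at 0 h; red is higher and blue lower. The darkest column is vehicle at 48 h, where Scd1 reached 3.20 and Fdps 2.86, while the SR9009 columns stay paler at 48 h.

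The first steps, from acetyl-CoA to squalene, held the highest levels and the largest sterol differences. Fdps, farnesyl diphosphate synthase (chromosome 2, 188403595 to 188413219, rn6), was the most abundant member by mean FPKM. It had 156, 273 and 356 FPKM at 0, 4 and 48 h of PE with SR9009, against 134, 199.8 and 979 FPKM in vehicle. The bounds of the arms do not overlap at 48 h. Its difference between 48 h and 0 h was 1.19 (0.76 to 1.61) with SR9009 and 2.86 (2.43 to 3.29) in vehicle.

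Idi1, the isomerase that makes the activated isoprene unit (chromosome 17, 57976266 to 58050992), had 40.8, 102.2 and 76.4 FPKM with SR9009, against 34.4, 74.9 and 207 FPKM in vehicle. With SR9009 it stood highest at 4 h; in vehicle its value was greater at each later time. Its locus in the table takes in Wdr37, so reads of overlapping genes may be shared between them. Hmgcs1, the cytosolic HMG-CoA synthase at the entry of the branch, had 86.1, 212.5 and 163 FPKM with SR9009, against 88.4, 163 and 366 FPKM in vehicle. The arms were alike at 0 h, SR9009 was above vehicle at 4 h and below it at 48 h. Fdft1, squalene synthase, was placed likewise, with 36.1, 89.8 and 59.4 FPKM with SR9009, against 35.1, 55.8 and 124 FPKM in vehicle. Acat2, the thiolase that joins acetyl-CoA units, had 23.7, 40.7 and 33.0 FPKM with SR9009, against 21.3, 24.3 and 76.4 FPKM in vehicle.

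The kinases in the middle of the branch did not meet the size rule. Mvk, mevalonate kinase, lay between 16.1 and 19.9 FPKM in the SR9009 groups and between 13.6 and 27.0 FPKM in the vehicle groups. Pmvk, phosphomevalonate kinase, differed by 0.80 between 48 h and 0 h in vehicle and Mvk by 0.78. Mvd, the mevalonate diphosphate decarboxylase, had 16.3, 31.4 and 23.5 FPKM with SR9009, against 15.3, 18.7 and 34.0 FPKM in vehicle. It met the rule between 48 h and 0 h in vehicle at 1.10 (0.66 to 1.54), but not with FPKM rescaled to equal sums. In all, 1 of the 8 members of this branch was higher at 48 h than at 0 h with SR9009, with a median of 0.61, against 6 of 8 in vehicle, with a median of 1.79. Over all genes, 1.26% were higher with SR9009 and 4.87% in vehicle.

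The DNA just before the start sites of these genes is where SREBP works together with NF-Y, which binds CCAAT, and Sp1, which binds GC boxes. Windows of 250 bases before to 50 after the RefSeq start (assembly GRCr8) matched 29 of the 35 members; Pmvk, Fdft1, Sqle, Acaca, Fasn and Stard4 had none. The windows of 5 members from different steps are shown because their genes rose at 48 h in vehicle, each 5′ to 3′ on the gene's strand. Capitals mark every match, on either strand, to CCAAT, to the GC box GGGCGG, to the E-box CACGTG or to the nuclear receptor half-site AGGTCA. A match on the other strand appears as its reverse complement. The windows are chr2:176804767-176805066 for Fdps, chr17:66547475-66547774 for Idi1 and chr4:8057720-8058019 for Insig1, all on the minus strand. The plus strand holds chr16:29746863-29747162 for Msmo1 and chr1:216252442-216252741 for Fads1.
Fdps: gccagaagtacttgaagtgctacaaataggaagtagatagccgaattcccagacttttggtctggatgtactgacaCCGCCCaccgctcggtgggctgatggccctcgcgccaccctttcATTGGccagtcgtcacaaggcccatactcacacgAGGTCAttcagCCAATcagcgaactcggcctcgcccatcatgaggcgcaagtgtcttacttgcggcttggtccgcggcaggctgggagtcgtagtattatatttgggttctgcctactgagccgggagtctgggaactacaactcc
Idi1: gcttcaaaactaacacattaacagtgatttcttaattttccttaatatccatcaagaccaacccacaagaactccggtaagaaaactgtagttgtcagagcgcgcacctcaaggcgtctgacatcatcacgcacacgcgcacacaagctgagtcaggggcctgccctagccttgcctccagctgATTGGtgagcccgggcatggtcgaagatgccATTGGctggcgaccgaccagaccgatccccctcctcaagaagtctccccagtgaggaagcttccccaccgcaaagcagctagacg
Msmo1: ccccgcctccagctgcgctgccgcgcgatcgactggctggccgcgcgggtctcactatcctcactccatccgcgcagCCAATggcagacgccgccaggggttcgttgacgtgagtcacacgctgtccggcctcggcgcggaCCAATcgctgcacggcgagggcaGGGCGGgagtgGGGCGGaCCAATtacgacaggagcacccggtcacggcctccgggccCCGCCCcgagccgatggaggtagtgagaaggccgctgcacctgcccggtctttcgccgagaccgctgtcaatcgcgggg
Insig1: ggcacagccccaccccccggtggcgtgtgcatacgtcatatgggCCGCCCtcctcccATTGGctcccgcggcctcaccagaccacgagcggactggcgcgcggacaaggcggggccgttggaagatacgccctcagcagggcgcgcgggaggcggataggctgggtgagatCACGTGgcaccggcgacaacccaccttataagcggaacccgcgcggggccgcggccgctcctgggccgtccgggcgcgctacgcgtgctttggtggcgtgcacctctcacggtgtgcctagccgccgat
Fads1: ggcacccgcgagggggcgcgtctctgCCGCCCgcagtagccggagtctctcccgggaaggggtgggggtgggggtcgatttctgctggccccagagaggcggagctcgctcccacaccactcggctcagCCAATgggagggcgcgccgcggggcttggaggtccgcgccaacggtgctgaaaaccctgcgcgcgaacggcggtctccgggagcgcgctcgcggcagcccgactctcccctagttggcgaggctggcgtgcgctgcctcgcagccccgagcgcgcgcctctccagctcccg

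The pair of CCAAT matches in Fdps flanks the only AGGTCA among the 5 printed windows, which starts at position -96 counted from the start site. Idi1 has a pair of CCAAT matches and no GC box, and Insig1 holds the only E-box of the 5. CCAAT was present in 20 of 29 member windows (69%), against 37.5% of all 33469 windows and 38.1% of the 8420 windows whose genes passed the same expression limit as the members. GGGCGG was present in 23 of 29 (79.3%), against 33.1% and 63.9% of those windows. CACGTG was in 5 of 29 (17.2%), against 6.42% and 9.6%, and AGGTCA in 2 of 29 (6.9%), against 16.2% and 11.6%. The sterol regulatory element in the form TCACNCCAC was in 0 of 29, against 1.12% and 1.21%. With shares that low, 0 of 29 windows cannot set the members apart from other genes. Other forms of the element were not searched, so unmarked stretches may hold them. The base composition of the windows was not matched in these shares. CCAAT was in 13 of the 17 matched members that were higher at 48 h in vehicle and in 7 of the other 12. Matches are descriptions of these letters in these windows and say nothing of whether a factor was bound.

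**Figure D2:**
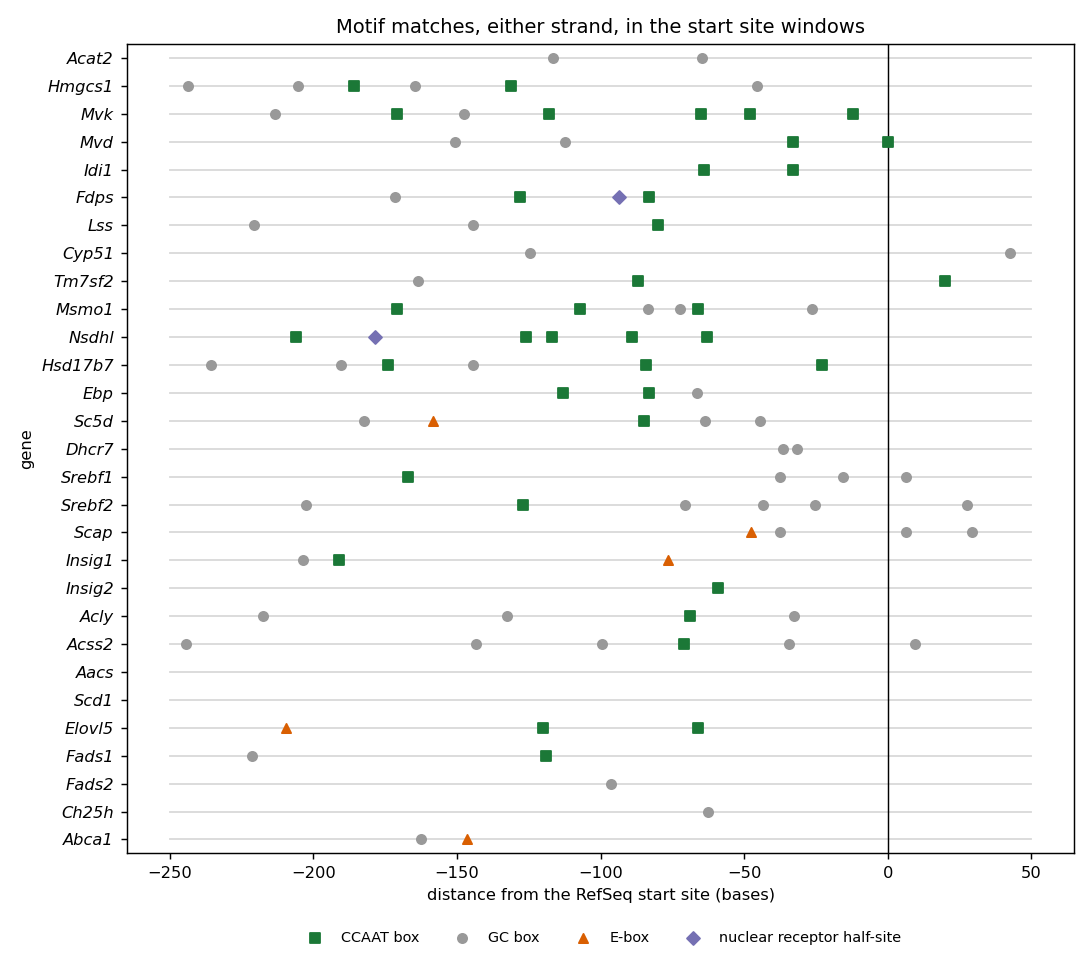
Motif matches on either strand (symbols) by distance in bases from the RefSeq start site (x axis) in the 29 member windows (y axis, one gene a row). CCAAT matches lie in 20 windows, mostly before the start, and the AGGTCA half-site in Fdps and Nsdhl alone.

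From squalene to cholesterol, 0 of 10 members were higher at 48 h than at 0 h with SR9009, with a median of 0.43, against 8 of 10 in vehicle, with a median of 1.31. The shares of all genes higher were 1.26% with SR9009 and 4.87% in vehicle. Sqle, squalene epoxidase, a rate-limiting enzyme of this branch, had 38.8, 70.9 and 54.2 FPKM at 0, 4 and 48 h with SR9009, against 29.8, 50.1 and 134 FPKM in vehicle. The bounds of the arms do not overlap at 48 h, where SR9009 was lower by -1.29 (-1.69 to -0.90); the difference of 0.49 (0.10 to 0.89) at 4 h did not meet the size rule. Msmo1, the sterol methyl oxidase, had 84.9, 200.4 and 111 FPKM with SR9009, against 69.6, 129 and 246 FPKM in vehicle. Its difference between 48 h and 4 h was -0.85 (-1.24 to -0.46) with SR9009 and 0.93 (0.54 to 1.32) in vehicle, of opposite sign and both short of the required size.

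Cyp51, the lanosterol demethylase, had 92.3, 174 and 154.5 FPKM with SR9009, against 70.5, 119.6 and 268 FPKM in vehicle. Hsd17b7, a ketosteroid reductase of the demethylation complex, was scarcer, with 5.82, 12.0 and 7.72 FPKM with SR9009, against 4.68, 7.06 and 18.1 FPKM in vehicle. Its locus overlaps LOC100366054. Among the late steps, Sc5d, a sterol desaturase, had 28.2, 45.8 and 42.6 FPKM with SR9009, against 31.3, 32.1 and 80.9 FPKM in vehicle. Its highest value with SR9009 was at 4 h, and in vehicle at 48 h.

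Dhcr7, the reductase that completes cholesterol, had 18.3, 26.7 and 23.0 FPKM with SR9009, against 16.3, 14.9 and 39.3 FPKM in vehicle. Its difference between 48 h and 0 h was 0.31 (-0.10 to 0.73) with SR9009 and 1.22 (0.81 to 1.63) in vehicle. Nsdhl, a sterol dehydrogenase, had 21.2, 31.2 and 30.7 FPKM with SR9009, against 21.4, 22.9 and 53.1 FPKM in vehicle. Both genes thus met the size rule in vehicle only, although SR9009 at 48 h did not differ from vehicle by the required size in either. Lss, lanosterol synthase, had 21.6, 26.1 and 23.5 FPKM with SR9009, against 18.7, 17.6 and 39.2 FPKM in vehicle. Its difference between 48 h and 0 h was 0.11 (-0.30 to 0.53) with SR9009 and 1.03 (0.62 to 1.45) in vehicle, which falls short with FPKM rescaled to equal sums.

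Tm7sf2 and Ebp were the post-squalene members that did not meet the size rule at 48 h in vehicle. Tm7sf2, a sterol reductase whose step the lamin B receptor can also carry out, had 17.4, 14.2 and 33.2 FPKM with SR9009, against 12.5, 11.2 and 23.1 FPKM in vehicle. It was the only one of the 18 sterol enzymes above vehicle with SR9009 at 48 h, by 0.50 (0.07 to 0.94), short of the size rule. Between 48 h and 4 h with SR9009 it was higher by 1.17 (0.71 to 1.64). Ebp, the sterol isomerase, had 8.87, 9.83 and 9.50 FPKM with SR9009, against 6.09, 6.13 and 10.3 FPKM in vehicle, and met the rule in no comparison.

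**Figure D3:**
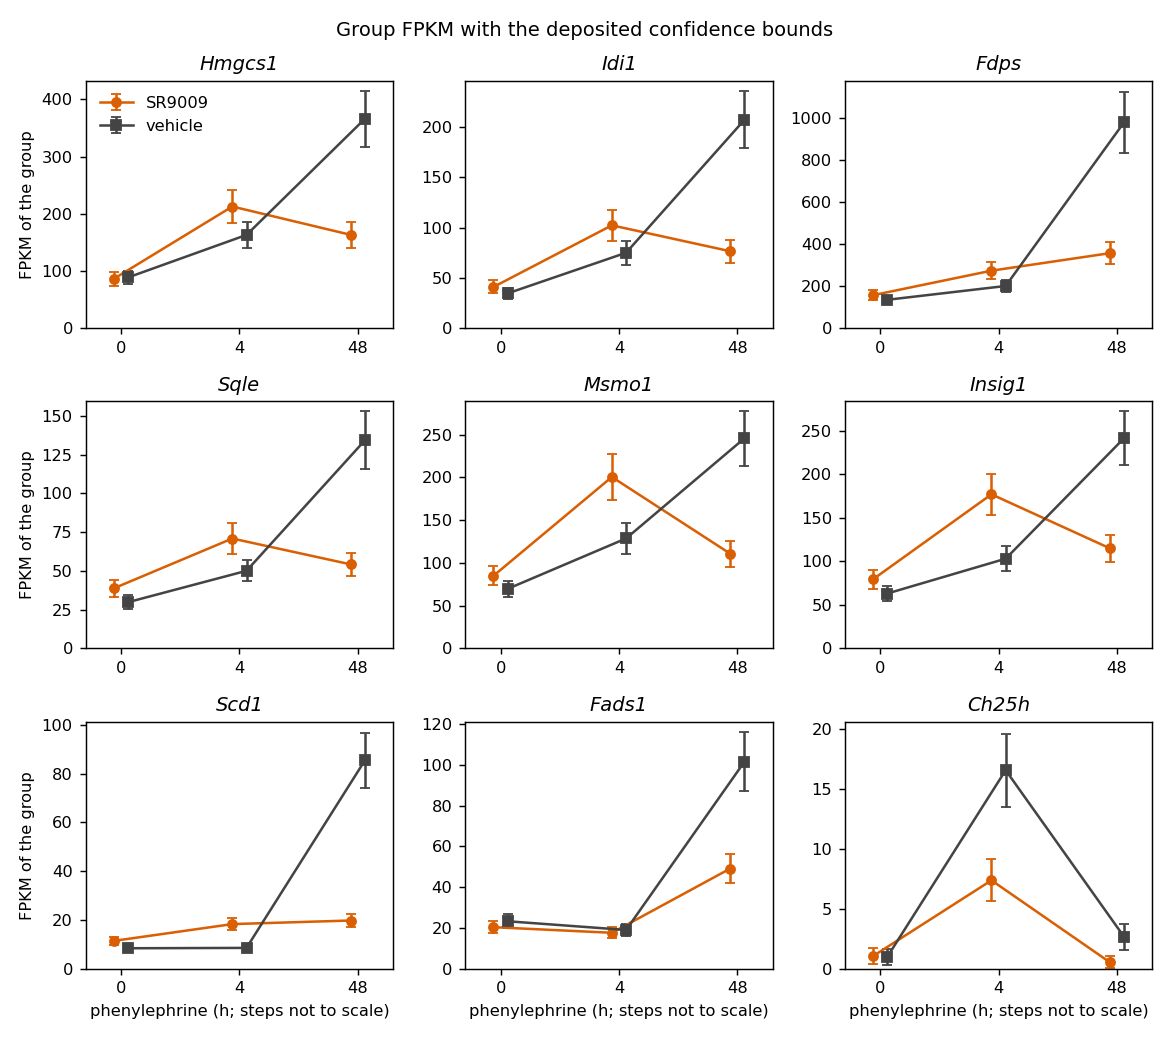
Group FPKM (y axis, linear from 0) of 9 members at 0, 4 and 48 h of PE (x axis, steps not to scale) with SR9009 (orange circles) and vehicle (grey squares); bars are the authors' confidence bounds, not replicate error. Msmo1 had 200.4 and 111 FPKM at 4 and 48 h with SR9009, against 129 and 246 FPKM in vehicle. The lines cross between 4 and 48 h in Msmo1, Hmgcs1, Idi1, Fdps, Sqle, Insig1 and Scd1.

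Among the regulators, only Insig1 met the size rule. Insig1, itself an SREBP target whose protein feeds back on SREBP (chromosome 4, 342302 to 350515, rn6), had 79.4, 177 and 115 FPKM with SR9009, against 63.0, 103 and 241 FPKM in vehicle. It followed the enzymes: above vehicle at 4 h, below it at 48 h. Its SR9009 difference at 48 h was -1.06 (-1.45 to -0.68), which falls short after rescaling to equal sums or quantile normalization. Insig2, the partner gene that is linked to REV-ERBα in mouse liver, had 36.4, 34.8 and 40.0 FPKM with SR9009, against 33.4, 30.1 and 41.5 FPKM in vehicle. Its SR9009 differences were 0.12 (-0.35 to 0.60) at 0 h, 0.20 (-0.27 to 0.67) at 4 h and -0.05 (-0.49 to 0.38) at 48 h, ranges that each hold 0.

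The SREBP genes themselves met the size rule in no comparison. Srebf2, which favours the cholesterol enzymes, had 34.0, 42.7 and 43.7 FPKM with SR9009, against 31.4, 35.5 and 58.4 FPKM in vehicle. Srebf1, which favours the fatty acid enzymes, had 29.4, 26.6 and 41.4 FPKM with SR9009, against 24.4, 21.4 and 38.2 FPKM in vehicle, and its locus overlaps Rai1, while that of Srebf2 holds Mir33. Their differences between 48 h and 0 h in vehicle were 0.87 (0.46 to 1.28) for Srebf2 and 0.62 (0.06 to 1.21) for Srebf1, under the required size. At 48 h Srebf1 differed between SR9009 and vehicle by 0.11 (-0.40 to 0.62). Scap, the escort, had 22.4, 26.7 and 20.7 FPKM with SR9009, against 19.9, 19.5 and 26.4 FPKM in vehicle. FPKM measures messenger RNA, and SREBP is regulated by cleavage of the protein, which these data do not measure.

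In the fatty acid branch, 1 of 9 kept members, Fads1, was higher at 48 h than at 0 h with SR9009, against 5 of 9 in vehicle. The background of all genes higher was 1.26% with SR9009 and 4.87% in vehicle. Scd1, stearoyl-CoA desaturase, which makes monounsaturated fatty acids (chromosome 1, 264160129 to 264172729, rn6), had 11.4, 18.3 and 19.8 FPKM with SR9009, against 8.41, 8.56 and 85.4 FPKM in vehicle. With SR9009 the 4 h and 48 h values were alike; in vehicle those at 0 and 4 h were alike and that at 48 h stood out. Its difference between 48 h and 0 h was 0.74 (0.36 to 1.13) with SR9009 and 3.20 (2.82 to 3.57) in vehicle, the largest of the 35 members in vehicle. Close relatives of Scd1 exist in rat, and their reads can be shared.

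Fads1 and Fads2 are desaturases of polyunsaturated fatty acids. Fads1 had 20.4, 17.6 and 49.1 FPKM with SR9009, against 23.3, 19.0 and 101.5 FPKM in vehicle. Its lowest value was at 4 h in both arms, as in Tm7sf2, Srebf1 and Insig2, and at 48 h it was higher than at 0 h in both, by 1.23 (0.82 to 1.64) with SR9009 and 2.08 (1.67 to 2.48) in vehicle. Fads2, its neighbour on chromosome 1, had 29.8, 24.6 and 49.0 FPKM with SR9009, against 30.3, 23.7 and 85.4 FPKM in vehicle. The order of the times in each arm is that of Fads1, but its bounds were wide (0 to 59.9 FPKM at 4 h with SR9009), the locus overlaps 5 other genes (Best1, Fads3, Fth1, Incenp and Rab3il1), and it met the rule in no comparison.

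Elovl5, the elongase acting on the same fatty acids, had 79.4, 102.1 and 93.6 FPKM with SR9009, against 82.1, 133 and 177 FPKM in vehicle. It lay below vehicle at both times under PE, by -0.38 (-0.77 to 0.01) at 4 h and -0.92 (-1.30 to -0.54) at 48 h, neither reaching the required size. Fasn, fatty acid synthase, had 48.1, 86.6 and 76.4 FPKM with SR9009, against 46.6, 54.7 and 107 FPKM in vehicle. Acss2, which makes acetyl-CoA from acetate, had 29.4, 34.5 and 41.6 FPKM with SR9009, against 28.4, 26.8 and 58.6 FPKM in vehicle, a difference between 48 h and 0 h of 0.49 with SR9009 and 1.02 (0.60 to 1.44) in vehicle. Fasn at 1.18, Elovl5 at 1.10 and Acss2 did not meet the rule in vehicle with FPKM rescaled to equal sums, nor Elovl5 and Acss2 under quantile normalization. Acly, ATP citrate lyase, Acaca, acetyl-CoA carboxylase, and Aacs, acetoacetyl-CoA synthetase, differed between 48 h and 0 h by -0.14 to 0.30 with SR9009 and by 0.54 to 0.77 in vehicle, below the required size.

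Stard4, a carrier of cholesterol between membranes, was highest at 4 h with SR9009 and at 48 h in vehicle, as most sterol enzymes were, with 10.3, 21.3 and 18.9 FPKM with SR9009, against 9.40, 13.5 and 41.9 FPKM in vehicle. Ch25h, which turns cholesterol into an oxysterol, was the one member with a peak at 4 h in both arms. It had 1.06, 7.37 and 0.543 FPKM with SR9009, against 0.993, 16.5 and 2.67 FPKM in vehicle. It was higher at 4 h than at 0 h by 2.02 (1.28 to 2.87) with SR9009 and by 3.14 (2.44 to 3.97) in vehicle, and SR9009 was below vehicle by -1.07 (-1.64 to -0.52) at 4 h. Under quantile normalization the SR9009 difference at 4 h missed the rule.

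Abca1, the exporter raised by oxysterols through LXR, was the one member whose value in vehicle was lowest at 48 h. It had 15.0, 9.65 and 14.7 FPKM with SR9009, against 17.4, 14.0 and 9.10 FPKM in vehicle. Its difference between 48 h and 0 h was -0.02 (-0.41 to 0.37) with SR9009 and -0.87 (-1.26 to -0.47) in vehicle, where it was the only member below 0; with SR9009 it was 1 of 5. SR9009 stood above vehicle at 48 h by 0.64 (0.25 to 1.03). None of these reached a size of 1, though that in vehicle did with FPKM rescaled to equal sums.

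The first 4 h of PE and the interval from 4 to 48 h were then taken apart. Between 4 h and 0 h, 6 of 35 members were higher with SR9009 (Hmgcs1, Idi1, Fdft1, Msmo1, Insig1 and Ch25h), beside 1.83% of all genes higher and 2.65% lower, with a member median of 0.52. In vehicle 2 of 35 were higher (Idi1 and Ch25h), beside 2.75% higher and 2.32% lower, with a median of 0.10. With FPKM rescaled to equal sums that median was -0.09, with 14 of 35 above 0 against 21, and 198 genes met the rule as higher and 407 as lower, against 287 and 242. Idi1 differed by 1.30 (0.86 to 1.75) with SR9009 and by 1.10 (0.64 to 1.56) in vehicle, where it falls short after rescaling to equal sums or quantile normalization. Between 48 h and 4 h the arms parted. Both intervals use the same 4 h groups with opposite sign, so they are not independent. With SR9009, 2 of 35 were higher (Fads1 and Tm7sf2) and Ch25h was lower, beside 2.49% of all genes higher and 2% lower, and 23 of 35 lay below 0. In vehicle, 17 were higher and Ch25h was lower, beside 3.85% higher and 2.37% lower, and 2 of 35 lay below 0.

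SR9009 was next set against vehicle at each time. At 0 h, after 24 h of the compound alone, 0 of 35 members met the rule, beside 0.499% of all genes higher and 0.566% lower. The differences ran from -0.21 (-0.60 to 0.19) in Abca1 to 0.48 (-0.20 to 1.17) in Ebp, and both ranges hold 0. Of the members, 28 of 35 lay above 0, with a median of 0.12, beside -0.01 for all genes. Members share the same libraries and are not independent replicates, so such counts above 0 are descriptions. At 4 h of PE, 31 of 35 lay above 0 with a median of 0.47, beside -0.06 for all genes, and all 18 sterol enzymes lay between 0.32 and 0.80. Of the 35, Scd1 was higher at 1.01 (0.64 to 1.39) and Ch25h was lower, beside a background of 0.499% higher and 1.05% lower. With a required size of 0.58, 12 of 35 were higher and 1 lower, beside 2.03% and 5.26% of all genes. Those 12 included Dhcr7 at 0.80, Insig1 at 0.77, Acat2 and Mvd at 0.72 each, Hsd17b7 at 0.69 and Fdft1 at 0.68.

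At 48 h of PE the order of the arms was turned round for most of the list. Compared with vehicle, 13 of 35 members were lower with SR9009 and 0 higher, beside a background of 4.55% lower and 2.33% higher. Scd1 was lowest at -2.06 (-2.43 to -1.68), followed by Fdps at -1.46 (-1.89 to -1.03) and Idi1 at -1.43 (-1.84 to -1.02). From the first branch, Hmgcs1 at -1.16, Acat2 at -1.18 and Fdft1 at -1.05 were also lower, while Mvk, Pmvk and Mvd did not meet the rule. From the second, Msmo1 at -1.14 and Hsd17b7 at -1.13 joined Sqle. Stard4 was lower by -1.11, Ch25h by -1.25 (-2.16 to -0.35), Insig1 as given above and Fads1 by -1.03. Ch25h was scarce here, with 0.543 FPKM (bounds 0.063 to 1.02) with SR9009, and was not kept with a mean of at least 5 FPKM. Fdft1 and Fads1 fell short of the rule under median centring, quantile normalization and rescaling to equal sums. Only Abca1, Tm7sf2 and Srebf1 lay above 0.

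**Figure D4:**
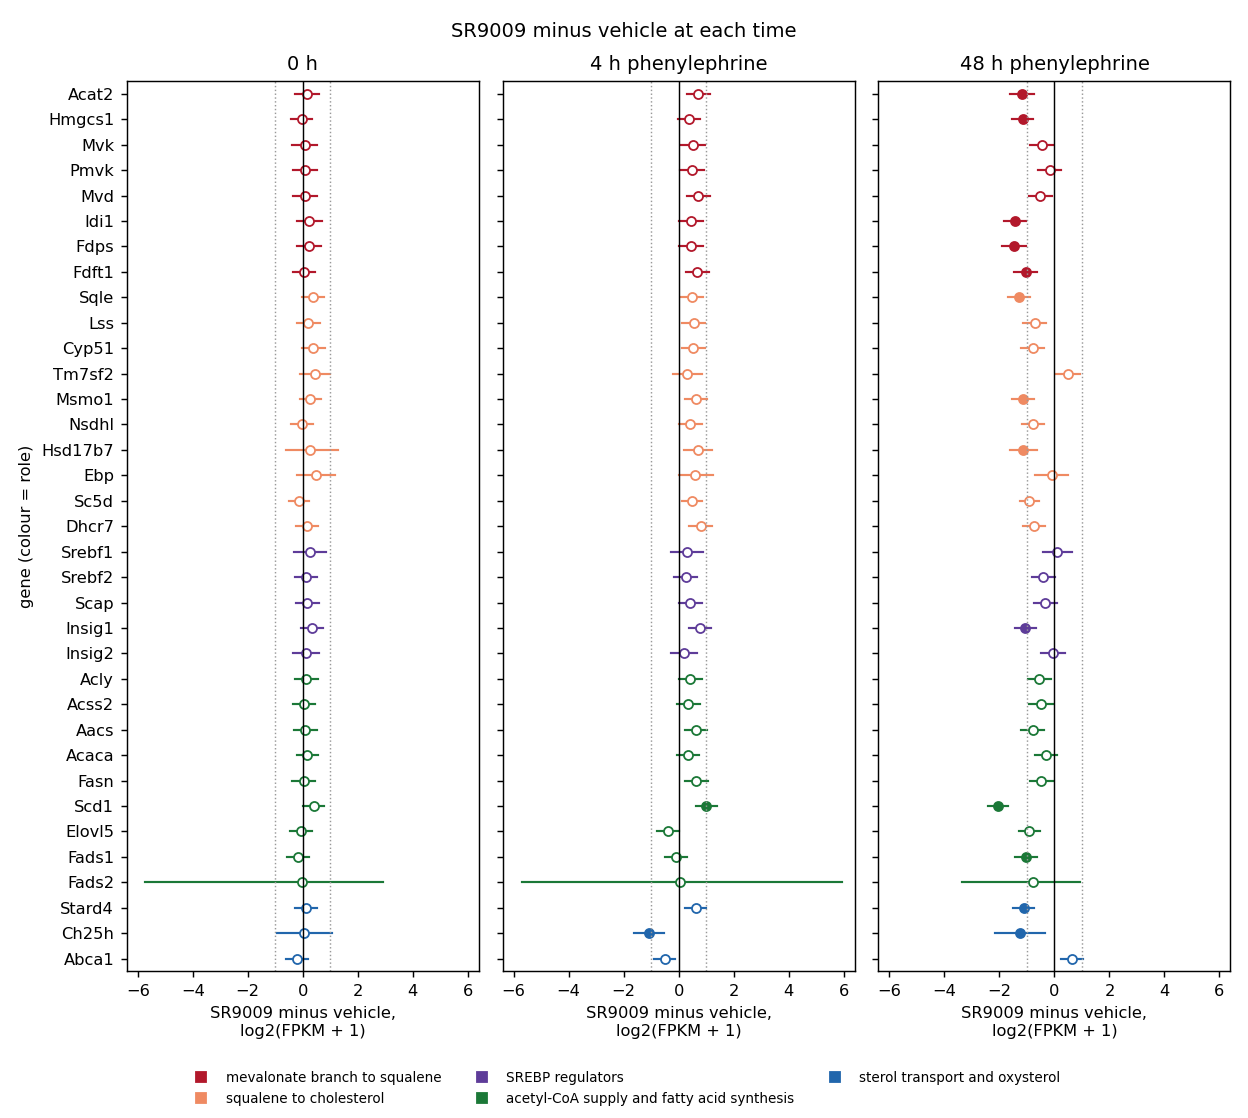
SR9009 minus vehicle in log2(FPKM + 1) (x axis) for each member (y axis, coloured by role) at 0, 4 and 48 h of PE; lines are the widest range the authors' bounds allow, filled points met the size rule, and dotted lines mark a size of 1. Points sit near 0 at 0 h (28 of 35 to its right), mostly to its right at 4 h (31 of 35) and to its left at 48 h (32 of 35).

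The change of the PE response between arms was taken as the difference at 48 h with SR9009 minus that in vehicle, each against its own 0 h group. It was below 0 in 33 of 35 members, with a median of -0.85 beside -0.03 for all genes, and 12 of 35 met the rule as lower, beside 3.71% of all genes higher and 5.34% lower. The largest were in Scd1 at -2.46 (-3.22 to -1.69), Fdps at -1.67 (-2.54 to -0.81), Idi1 at -1.67 (-2.55 to -0.80) and Sqle at -1.66 (-2.47 to -0.85). Fdft1 and Hsd17b7 fall short of the rule here after rescaling to equal sums. This measure shares its 48 h groups with the comparisons of SR9009 with vehicle and of 48 h with 0 h, so they are not independent. At 4 h the measure lay above 0 in 31 of 35 members with a median of 0.31, and 0 of 35 met the rule, beside 0.077% of all genes higher and 0.346% lower.

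The 2 arms share no group, so their PE differences at 48 h can be set side by side. Across the 35 members Pearson's r was 0.70 and Spearman's rho 0.73, and across 10394 genes they were 0.25 and 0.18. Genes are not independent replicates, each group's values share the same libraries, and the correlation is a description. The difference was smaller with SR9009 in 33 of 35 members and in 5456 of the 10394 genes. For the members this is the same count as for the change of the PE response above, not a further result.

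**Figure D5:**
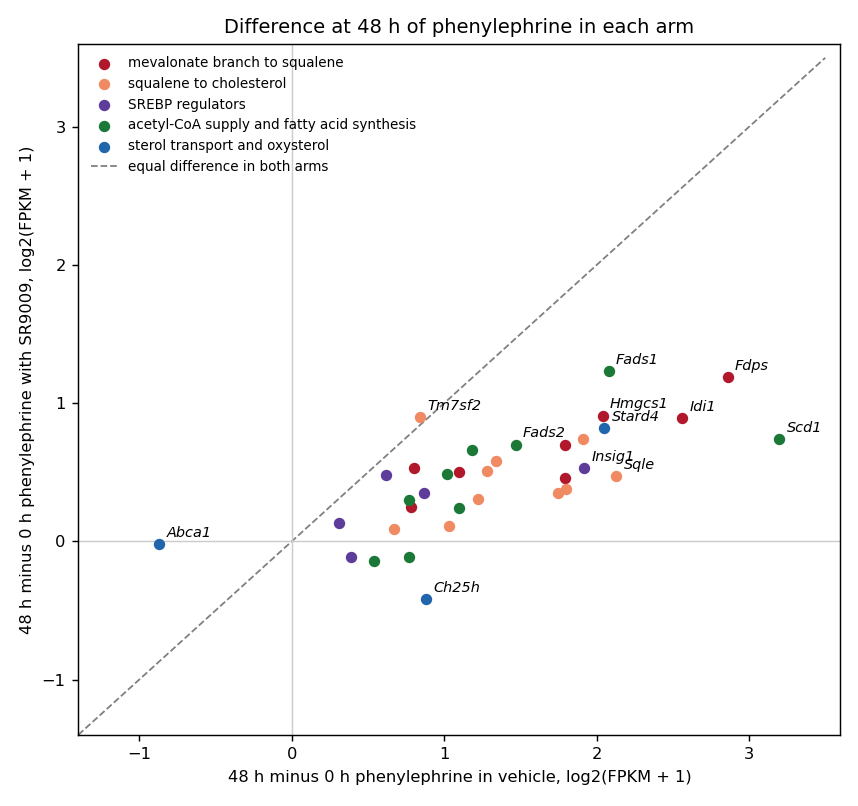
Difference between 48 h and 0 h of PE in log2(FPKM + 1), with SR9009 (y axis) and in vehicle (x axis); each point is a member coloured by role, and the dashed line marks equal differences. All but Tm7sf2 and Abca1 lie below the line, Scd1 farthest at 0.74 with SR9009 and 3.20 in vehicle.

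A smaller required size of 0.58 brought in more members and more of all genes. Between 4 h and 0 h it was met by 17 of 35 with SR9009, beside 16.6% of all genes in either direction, and by 9 of 35 in vehicle, beside 17.3%. Between 48 h and 0 h it was met by 10 with SR9009, beside 10.2%, and by 30 in vehicle, beside 21.9%. Between 48 h and 4 h it was met by 8 with SR9009, beside 16.4%, and by 30 in vehicle, beside 17.5%. The directions differed: 3 were higher and 5 lower with SR9009, against 29 higher and 1 lower in vehicle. SR9009 against vehicle met it in 13 members at 4 h, beside 7.29%, and in 21 at 48 h, beside 18.7%. The change of the PE response at 48 h met it in 19, beside 13.2%.

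A list of 30 further lipid genes, chosen by function, was read in the same way. Of the 27 with a mean of at least 1 FPKM, 1 was higher and 0 lower at 48 h than at 0 h with SR9009, against 6 higher and 1 lower in vehicle. The shares of all genes were 1.26% higher and 1.16% lower with SR9009, and 4.87% and 3.96% in vehicle. Scd2, another stearoyl-CoA desaturase, had 205, 289.8 and 476 FPKM at 0, 4 and 48 h with SR9009, against 164, 166.5 and 833 FPKM in vehicle. Between 48 h and 0 h it was higher by 1.21 with SR9009 and by 2.33 in vehicle. The same difference in vehicle was 1.57 for Tmem97 and 1.56 for the acyl-CoA synthetase Acsl3. Gpam, which starts glycerolipid synthesis, was lower at 48 h than at 0 h in vehicle by -1.15. For the change of the PE response at 48 h, 7 of the 27 were lower and 1 higher, beside 5.34% of all genes lower and 3.71% higher. Those lower included Tmem97 at -1.60, Acsl3 at -1.16, Scd2 at -1.12 and Soat1, a cholesterol acyltransferase, at -1.10, and the one higher was Gpam at 1.17.

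At 48 h, SR9009 compared with vehicle left 3 of these 27 lower, Tmem97 at -1.39 among them, and 0 higher. The shares of all genes were 4.55% lower and 2.33% higher. The median of the 27 was -0.06, against -0.79 for the 35 members and -0.04 for all genes.

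Markers of cell types and of division also differed between groups, and their part in these results was not tested. For the change of the PE response at 48 h, the member median was -0.85 and that of the dividing cell list -1.52. The other lists lay above 0: 1.04 for cardiomyocyte and 1.05 for fibroblast markers. Endothelial, smooth muscle, macrophage and adipocyte medians lay between 0.19 and 0.44. The 8 genes of dividing cells summed to 85.6, 61.9 and 69.3 FPKM at 0, 4 and 48 h with SR9009, against 95.5, 79.8 and 307 FPKM in vehicle. Of these, 8 of 8 were lower with SR9009 at 48 h, beside 4.55% of all genes. At 4 h, where 31 of 35 members lay above vehicle, 8 of 8 lay below it, with a median of -0.35. The 10 fibroblast markers summed to between 939 and 1842 FPKM with SR9009 and between 1221 and 2089 FPKM in vehicle, Col1a2 being listed at 0 throughout. Among the 9 measured, 6 were lower at 48 h than at 0 h in vehicle, beside 3.96% of all genes. Of 7 adipocyte markers, Adipoq, Plin1, Cidec, Lep and Retn stayed under 1 FPKM in every group. Cfd reached at most 1.14 FPKM with SR9009 and 3.44 FPKM in vehicle. Fabp4 reached 10.2 FPKM with SR9009 and 9.02 FPKM in vehicle, and was lower at 48 h than at 0 h by -1.02 with SR9009 and by -1.22 in vehicle. Of the cardiomyocyte markers 9 of 10 are in the table, summing to between 10152 and 19552 FPKM with SR9009 and between 14075 and 19426 FPKM in vehicle. At 0 h, before PE, 9 of 9 lay below vehicle with SR9009, with a median of -0.48, and 0 met the rule. The sums there were 10152 FPKM with SR9009 and 14075 FPKM in vehicle. At 48 h the sums were 19552 FPKM with SR9009 and 17950 FPKM in vehicle. Of these 9, 2 were then higher with SR9009 than with vehicle, beside 2.33% of all genes. The macrophage list summed to at most 21.1 FPKM with SR9009 and 41.3 FPKM in vehicle, the endothelial list to 26.8 and 23.3 FPKM. Most macrophage, endothelial and adipocyte sums were thus far under those of the cardiomyocyte list. The 7 smooth muscle markers summed to 826 FPKM with SR9009 at 48 h, against 1922 FPKM in vehicle, a gap carried by Acta2, Tagln and Cnn1. Their median difference was -0.03, with 3 of 7 above 0 and 2 of 7, Acta2 and Cnn1, lower, beside 4.55% of all genes lower. In such cultures a change in the mix of cells and a change in RNA per cell cannot be told apart.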

How the data were processed

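Stranded mRNA libraries, 18 in all, were sequenced, and the sample labels gave the 6 groups of 3. The submitters' processing notes name FastQC, Trim Galore, TopHat, Cuffdiff and the build rn6, without versions. The deposited table holds 1 FPKM per gene and group with confidence bounds, per the file headers. The confidence level, the scaling of libraries, the use of strand in counting and whether libraries came from separate cultures are not stated.

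Values were analysed as log2(FPKM + 1) for the 10545 genes that averaged 1 FPKM or more. Values not marked OK, outside their own bounds or listed at 0 entered no difference. With 1 value per group limma could not be run. The code of the size rule was checked on simulated data with noise scaled to the same bounds. That check gives no error rate for these libraries. The members, lists, rule and motifs were chosen with earlier results of these data known, so they are no independent support. FPKM in every group is given for members that met the rule for 48 h against 0 h or for SR9009 against vehicle, for the regulators and for the extremes. Loci are rn6, counted from 1: read so, 2074 gene lengths equal those of RefSeq, against 277 otherwise. Promoter windows are RefSeq's, on GRCr8; Scd1 was matched as Scd, and the first of the start sites of Srebf1 was used. Some genes of the further lipid list are counted but not reported by name here. Python 3.11.15, pandas 2.3.3, numpy 2.4.6 and matplotlib 3.10.9 were used. Alternatives were another pseudocount, other scalings, other filters, size alone and a size of 0.58.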

Additional observations from a re-analysis of the deposited data

Results flagged for a closer look

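For SR9009 against vehicle, Scd1 was the only member that met the size rule in opposite directions at different times. Its difference, SR9009 minus vehicle, was 1.01 (0.64 to 1.39) at 4 h of PE and -2.06 (-2.43 to -1.68) at 48 h. The FPKM behind these were 18.3 with SR9009 and 8.56 in vehicle at 4 h, and 19.8 with SR9009 and 85.4 in vehicle at 48 h. The groups hold 1 combined value each, so the difference between the times was not tested.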

How the results depend on the processing

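Of 88 counts of members under the 8 alternatives, 74 stayed within 1.5 times the reported count. At a required size of 0.58 the members meeting the rule were 9 against 2 for 4 h of PE in vehicle, 30 against 18 for 48 h against 4 h in vehicle, 17 against 6 for 4 h with SR9009, 10 against 2 for 48 h with SR9009, and 8 against 3 for 48 h against 4 h with SR9009. For SR9009 against vehicle they were 13 against 2 at 4 h and 21 against 13 at 48 h, and for the change of the PE response at 48 h 19 against 12; a lower size admits more genes by construction. For 4 h of PE in vehicle, equal sums, quantile normalization and a mean of at least 5 FPKM each left 1 (without Idi1, Idi1 and Ch25h in turn). For SR9009 at 4 h, quantile normalization and a mean of at least 5 FPKM each left 1, Scd1, as higher with 0 lower, against 1 and 1. For the change of the PE response at 4 h, size alone gave 1 against 0. Of 3069 member differences recomputed, 2958 kept their side of the rule, 90 newly met it, 21 no longer did, and none that met it changed sign.

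Equal sums shifted all genes. Their median difference became -0.19 (reported 0.01) for PE at 48 h in vehicle, -0.20 (-0.02) for PE at 4 h in vehicle, -0.17 (-0.06) for PE at 4 h with SR9009, -0.13 (-0.03) for PE at 48 h with SR9009, 0.06 (-0.04) for the SR9009 difference at 48 h and 0.08 (-0.03) for the change of the PE response at 48 h. The members' medians became 0.96, -0.09, 0.40, 0.38, -0.68 and -0.73 in that order. Only that for PE at 4 h in vehicle changed sign, with 14 of 35 members above 0 against 21 as reported. The split of all genes that met the rule, higher and lower, moved with it, to 341 and 666 (reported 507 and 412), 198 and 407 (287 and 242), 147 and 415 (190 and 276), 111 and 165 (131 and 121), 341 and 391 (243 and 474) and 512 and 442 (386 and 555) in the same order. Leaving out single libraries was not run. No paired analysis was possible because the columns hold 1 value per group and carry no replicate number. The authors' bounds, not known depth, limit what can be seen.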
